A study of Mus musculus with 3 samples.

Results

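Processed pseudogenes are copies of messenger RNAs that were reverse transcribed and inserted into the genome, usually without introns and without the promoter of the gene they came from. 243 of the 9940 genes annotated only as processed pseudogenes were assigned a mean of 10 TPM (transcripts-per-million, a level that allows for length) or more, and they are described here out of 55536 genes in all. They were chosen by their mean TPM over the 3 libraries in the authors' gene table, so these levels are a description and were not tested. A mean also admits a copy that is high in a single library: 192 of the 243 reached 10 TPM in every library.

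The libraries are polyA plus RNA-seq of regulatory T cells, a suppressive class of CD4 T cells, from a male adult mouse aged 4 months that carried Foxp3CreERT2 and Rosa26YFP, a Cre under the regulatory T cell gene Foxp3 with a yellow fluorescent reporter. All 3 are labelled as technical replicates of biological replicate 1, so there is 1 group and no comparison between conditions. Every p-value below measures only the spread between these libraries. The labels also say that the cells originated from a bone marrow hematopoietic cell. Expected counts summed to 9299054, 9188612 and 8284381 in libraries 1, 2 and 3. The 7 regulatory T cell markers, Foxp3 among them, were all above 1 TPM in every library. The libraries differed in other cells' markers: the 5 erythroid genes summed to 1681, 9.02 and 1495 TPM and the 5 B and plasma cell genes to 2004, 258 and 1385 TPM, each lowest in library 2. Foxp3 had 27.6, 43.7 and 47.1 TPM and Il2ra, the interleukin 2 receptor alpha chain, 211, 332 and 369 TPM, both lowest in library 1. Ikzf2 and Cd4 were also lowest there, and Ctla4 was nearly equal in libraries 1 and 3 (210 TPM in each). Tnfrsf18 went the other way, highest in library 1 at 761, 650 and 655 TPM, and Cd3e was lowest in library 3.

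A read from a stretch that a pseudogene shares with its source gene matches both. A program that assigns such reads splits them by a statistical model, while a counter that keeps only unambiguous reads drops them. Genes of ribosomal proteins, glycolytic enzymes and other abundant housekeeping proteins have many such copies, since processed copies arise from messenger RNA present in the germ line. A level in the gene table is therefore an assignment of reads, and 3 tables of the same libraries allow the assignments to be compared. They are the expected counts of the gene table, a second table of estimated counts made from the reads and an index of the same GENCODE M21 annotation, and a table of gene counts under the older M4 annotation.

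The sequence that sets these copies apart was short. The closest protein-coding gene, the best match among M21 protein-coding transcripts, was found for 242 members. The median identity was 99.5%, and 61 members were identical to the matched transcript over the aligned stretch. In the median member, 7.03% of the overlapping 31-base words occurred in no other annotated gene, against 85.7% in the 9697 processed pseudogenes under 10 TPM and 97.6% in the 6870 protein-coding genes at 10 TPM or more. 77 members (31.7%) had no such word, against 3.99% of the other processed pseudogenes and 0.102% of the protein-coding genes. For 70 members (28.8%) the whole annotated sequence lay inside a transcript of another gene on either strand, against 3.11% of the other processed pseudogenes. The holder was a protein-coding gene for 58 of the 70, and for 10 it was only another pseudogene.

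**Figure D1:**
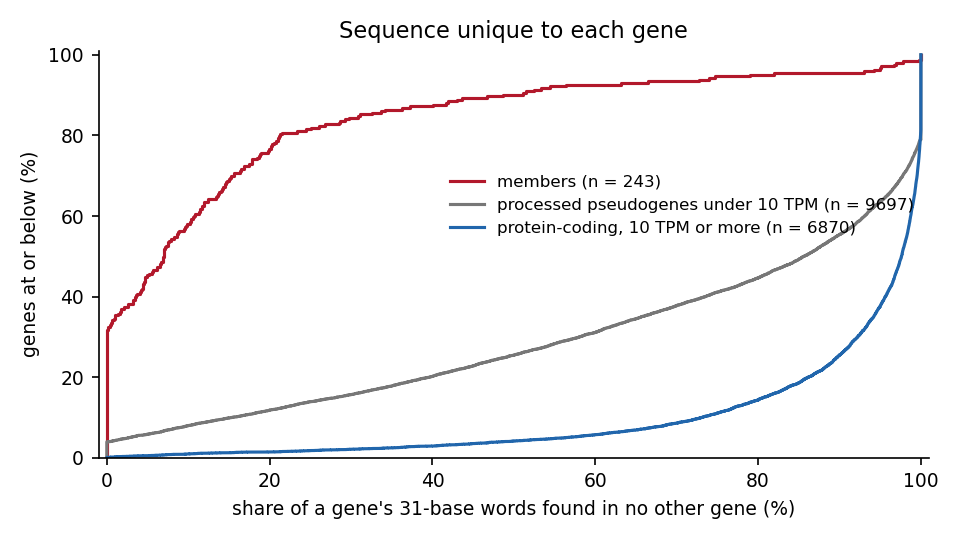
Cumulative share of genes (y axis, %) against the share of their 31-base words found in no other gene (x axis, %), for the members, the other processed pseudogenes and the protein-coding genes at 10 TPM or more. The line of the members starts at 31.7% because 77 of them had no word of their own.

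Copies of the ribosomal protein gene Rpl21 show how little can separate them. Gm10163, the member with the largest difference between libraries, lies at chr9:88390837-88391317 and Gm13370 at chr2:24985984-24986466, both on the plus strand of mm10. Their annotated sequences are the same except that Gm13370 runs on for 2 bases. Gm10240 on chromosome 15 has the same 483 bases as Gm13370. The last 150 bases of Gm13370 (chr2:24986317-24986466) are printed here with the matching bases of Gm10163 (chr9:88391170-88391317) and the end of the coding sequence of Rpl21 (transcript bases 628 to 777, gene at chr5:146832890-146837032, plus strand). Capitals mark the bases that differ from Rpl21.
Gm10163: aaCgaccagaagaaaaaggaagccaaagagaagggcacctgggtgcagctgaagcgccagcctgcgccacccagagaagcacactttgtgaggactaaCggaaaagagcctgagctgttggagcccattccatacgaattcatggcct
Gm13370: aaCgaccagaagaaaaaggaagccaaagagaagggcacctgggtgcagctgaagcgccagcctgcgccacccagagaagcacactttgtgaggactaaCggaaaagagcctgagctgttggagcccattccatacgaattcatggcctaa
Rpl21: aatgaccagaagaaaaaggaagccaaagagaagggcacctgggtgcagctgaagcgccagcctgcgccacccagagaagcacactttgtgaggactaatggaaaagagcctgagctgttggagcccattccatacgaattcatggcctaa
Counted from base 1 of either copy, the differences from Rpl21 in this stretch are T336C and T432C.

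The highest member and the member on which the 3 tables came closest stood at opposite ends in this respect. Rps23-ps1, a copy of the small-subunit protein gene Rps23, lies at chr3:37714740-37715164 on the plus strand, and all its 425 bases lie inside a transcript of Rps23. Its first 150 bases (chr3:37714740-37714889) hold the start of the coding sequence, without a capital because none differs from Rps23. Gm10355 at chr3:101306563-101307079 on the minus strand is a copy of Rangrf, the guanine nucleotide release factor of the nuclear transport GTPase Ran. It lacks 39 bases of the Rangrf coding sequence in 1 gap. Its 100 bases around the gap (chr3:101306638-101306737) carry 1 capital, a base that differs as aligned. Below it is the matching stretch of Rangrf (transcript bases 468 to 606, gene at chr11:68972484-68975185, minus strand), with the 39 bases that Gm10355 lacks in capitals.
Rps23-ps1: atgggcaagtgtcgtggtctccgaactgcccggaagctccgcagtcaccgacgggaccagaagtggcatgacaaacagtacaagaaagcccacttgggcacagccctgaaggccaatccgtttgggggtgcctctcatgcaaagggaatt
Gm10355: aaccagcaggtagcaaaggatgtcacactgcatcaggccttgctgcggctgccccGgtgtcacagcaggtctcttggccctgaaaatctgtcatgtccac
Rangrf: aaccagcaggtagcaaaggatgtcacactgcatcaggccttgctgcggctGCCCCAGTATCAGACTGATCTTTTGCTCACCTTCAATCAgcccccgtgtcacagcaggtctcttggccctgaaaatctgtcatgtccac
The sequences are those of the GENCODE M21 transcripts.

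Intact reading frames were common among the members. In 109 of the 242 with a closest gene (45.0%), an open reading frame had at least 95% of the length of that gene's coding sequence. The frame ran from a start to a stop codon. The share was 5.73% in the other processed pseudogenes that had a closest gene. A copy whose annotation ends before the stop codon, such as Gm10163, does not count under this measure. Nearly all members (241) have 1 exon, and 114 lie inside the body of another gene. RefSeq, matched by symbol, lists 185 members as pseudogenes, 27 as transcribed pseudogenes and 5 as protein-coding genes, and 26 had no match. The 5 listed as protein-coding are Ndufb4c, Gm12250, Rpl34-ps1, Gmfg-ps and H3f3c.

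Together the members were assigned 5.85%, 5.01% and 5.01% of all TPM in libraries 1, 2 and 3, but only 1.53%, 1.16% and 1.14% of the expected counts. Members are short (median 453 bases, against 2082 for the protein-coding genes at 10 TPM or more), and TPM divides by an effective length that is shorter still. 102 of the 243 had a ribosomal protein gene as closest gene, 13 a chromatin or HMG protein gene, 9 a gene from a list of translation factors with Tpt1, Naca and Btf3, 9 a listed RNA-binding protein gene, 9 a gene of the Atp5, Cox, Nduf or Tomm symbols (ATP synthase, respiratory chain and mitochondrial import), 7 a ferritin or ubiquitin gene, 6 a chaperone or cyclophilin gene, 4 a cytoskeletal and 3 a glycolytic gene. 80 had some other gene as closest gene, and Gm15433 had no closest gene. The lists go by symbol and do not hold every gene of a function: copies of the mitochondrial ribosomal genes Mrpl20 and Mrps14 are among the other genes. The levels were uneven: 69 members were at 100 TPM or more and 77 were under 20 TPM. The 10 highest held 43.4% of the members' TPM on average.

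The members with the highest TPM were mostly ribosomal protein copies, and in TPM, which divides by length, most stood above the genes they match. Rps23-ps1 had 4051, 3232 and 3380 TPM in libraries 1, 2 and 3, and Rps23 had 1155, 880 and 896 TPM. Rps6-ps4 had 3044, 2755 and 2812 TPM, and Rps6, a ribosomal protein known as a target of growth signalling kinases, had 2499, 1838 and 1970 TPM. Gm12918 had 3158, 3030 and 2994 TPM beside 2403, 2141 and 2153 TPM for the large-subunit gene Rpl13. In these examples every library of the copy was above every library of its gene.

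In expected counts the order was less clear. Rps23-ps1 had 8184, 5537 and 5202 against 4966, 3199 and 2954 for Rps23. Rps6-ps4 had 14131, 10873 and 10006 against 14172, 8858 and 8565 for Rps6. Gm12918 had 11756, 9582 and 8533 against 11773, 8929 and 8084 for Rpl13. Both of these copies were slightly below their gene in library 1 and above it in libraries 2 and 3. Gm14303 had 602, 455 and 431 expected counts against 3698, 2423 and 2352 for Rps29, so its order was the opposite of that in TPM. Gm10443 likewise had 613, 408 and 413 against 2513, 1717 and 1631 for Rps28.

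Mean TPM was above that of the closest gene in 9 of the 10 highest members, and 9 of the 10 had no 31-base word of their own and lay whole inside another gene's transcript. Gm7536 had 1525 ± 185 TPM (SD, n = 3) against 172 ± 5.87 TPM for Rpl27a. The exception in mean TPM was Gm10123, at 2006 ± 215 TPM beside Ppia, the cyclophilin A gene. Rps16-ps2 (1994 TPM on average), Rpl15-ps3 (1598 TPM), Gm10443 (1434 TPM, closest to Rps28), Gm14303 (3262 TPM, closest to Rps29) and Rps3a2 (1680 TPM, closest to Rps3a1) complete the list. The exception in sequence was Rps3a2, with 7.09% of its words its own. In library 3 it had 1175 TPM, below the 2033 TPM of Rps3a1. Over all members, 44 were above their closest gene in mean TPM.

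**Figure D2:**
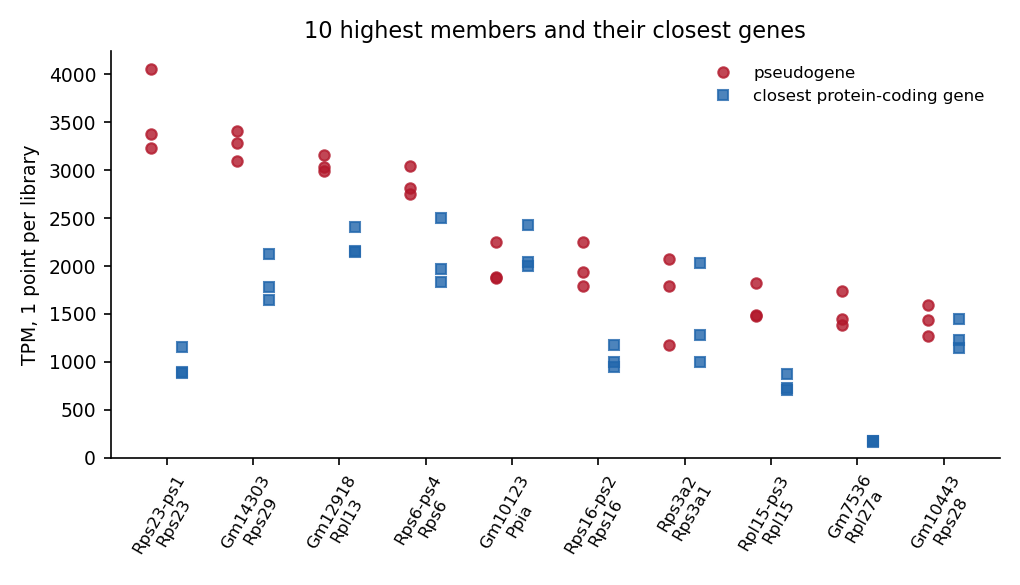
TPM (y axis) of the 10 members with the highest mean TPM (circles) and of their closest protein-coding genes (squares, named under each member), with 1 point per library. Rps23-ps1 lies between 3232 and 4051 TPM, all above the 3 points of Rps23.

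A few high TPM values rested on very few reads. Gm42845, a 105-base copy of part of Rps7, had 642, 329 and 217 TPM from 6.41, 2.62 and 1.64 counts. 18 of the 243 members had under 30 expected counts over the 3 libraries, and 7 had an effective length under 10 bases. Members under 30 counts were not tested for a difference between libraries.

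The threshold fell in a dense range of values. Gm10335, Gm34727 and Gm5831 had mean TPM of 10.003, 10.01 and 10.03. Gm5931, Gm12229 and Gm20302 fell short with 9.78, 9.77 and 9.74 TPM. Gm5931 had 16.2, 13.2 and 0 TPM.

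Differences of 2-fold or more between libraries were found in 21.8% of the members tested, a share near that of the other processed pseudogenes tested. A chi-square test of the rounded expected counts against the library sizes, adjusted over all genes with 30 or more counts, called 141 of the 225 members tested different between libraries, against a background of 54.5% of all genes tested. The share was 70.9% in protein-coding genes at 10 TPM or more and 25.9% in the 197 processed pseudogenes under 10 TPM that were tested. A call with a 2-fold or larger ratio between the highest and the lowest library, after adding 1 count to both, was made for 49 of the 225, against 8.48% of all genes tested, 2.24% of the protein-coding genes at 10 TPM or more and 23.9% of the processed pseudogenes under 10 TPM. The median ratio was 1.56 in the members and 1.37 in all genes tested. It was also 1.56 in the closest genes taken alone, each counted once per member, and 1.28 in protein-coding genes at 10 TPM or more. The counts fell to 52 and 19 without library 1, the library lowest in Foxp3 and Il2ra but highest in Tnfrsf18. Whether these marker differences had a part in the fall was not tested. Without library 2 they were 127 and 25, and without library 3 they were 119 and 25. Since expected counts are themselves assignments, the test treats as counted what was in part estimated.

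By closest gene, 26 of the 97 ribosomal protein copies tested were called with a 2-fold or larger ratio. So were 4 of 7 ferritin or ubiquitin copies, 2 of 13 chromatin or HMG copies and 14 of 71 members closest to other genes. The list of translation factors with Tpt1, Naca and Btf3, the RNA-binding list and the Atp5, Cox, Nduf and Tomm list had 1 such call each, of 9, 7 and 9 tested. None of the 3 glycolytic, 3 cytoskeletal or 5 chaperone and cyclophilin copies tested had one. At adjusted p under 0.05 alone, 3, 1 and 4 of these were called.

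Several of the widest differences lay among copies that share a sequence. In the copies of Rpl21, Rpl7a and Ube2v2, one copy was high where another was low. Gm10163 had 1.20, 122 and 602 expected counts in libraries 1, 2 and 3. Gm13370 had 669, 373 and 158, and Gm10240 had the same values. The libraries thus ran in opposite order in Gm10163 and in its longer twins. The 5 members closest to Rpl21 together had 1412, 913 and 973 counts, a ratio of 1.66 from highest to lowest library after scaling, near the 1.59 of Rpl21 itself (6844, 4615 and 4419 counts). In the table of estimated counts Gm10163 had 856, 548 and 1213, and Gm13370 had 1523, 988 and 732.

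Copies of Rpl7a, a large-subunit protein gene, had the same opposite pattern. Rpl7a-ps11 had 211, 1.97 and 147 expected counts and was near 0 in library 2. Gm8226 had 38.1, 220 and 0, and was high in that library. The 798 annotated bases of Gm8226 are the first 798 of the 801 of Rpl7a-ps11. Their sum was 249, 222 and 147, a scaled ratio of 1.61. The table of estimated counts gave neither copy more than 42.6 in any library.

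Ube2v2, which encodes a partner of a ubiquitin-conjugating enzyme, has a pair of copies that switched completely. Gm6361 had 112, 0 and 76.2 expected counts, and Gm6565 had 0, 85.9 and 0. The 435 bases of Gm6361 are the first 435 of the 438 of Gm6565, and both lie whole inside a Ube2v2 transcript. The estimated counts made the same switch, with 146, 6.56 and 128 for Gm6361 and 120 for Gm6565 in library 2, and 0.000498 and 0.000167 in libraries 1 and 3. The sum of the copies differed between libraries by a ratio of 1.40, and Ube2v2 by 1.32.

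Not every wide difference had such a counterpart. Gm4294, a copy of the large-subunit gene Rpl15, had 103, 0 and 157 expected counts and 121, 0.00989 and 202 estimated counts, so both tables left it empty in library 2. Rpl15-ps3, the other member closest to Rpl15, had 6486, 4467 and 4045 expected counts and was not highest there. Gm10231, a copy of the ATP synthase subunit gene Atp5g2, fell from 114 to 62.6 and 25.9 expected counts over libraries 1, 2 and 3 while Atp5g2 had 170, 209 and 393. The estimated counts of Gm10231 did not follow, at 207, 152 and 190. Erythroid and immunoglobulin genes were also lowest in library 2, as Rpl7a-ps11, Gm4294 and Gm6361 were, while Gm8226 and Gm6565 were highest there. Whether the other cells' RNA had a part in this was not tested.

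**Figure D3:**
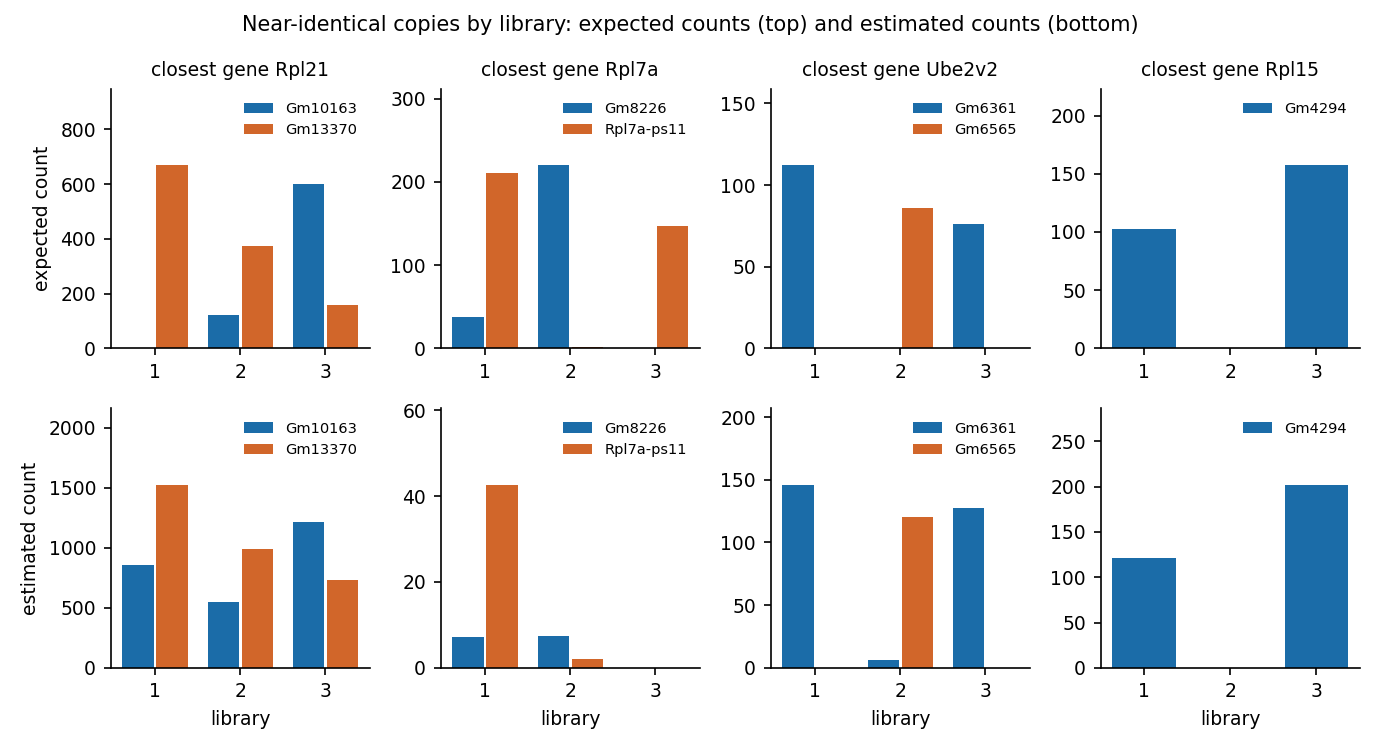
Expected counts (top) and estimated counts (bottom) in libraries 1, 2 and 3 for copies of Rpl21, Rpl7a, Ube2v2 and Rpl15, 1 bar per copy and library. Gm8226 and Gm6565 are high in library 2, where Rpl7a-ps11 has 1.97 expected counts and Gm6361 has 0.

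The authors' gene table gives an interval for the TPM of each gene from sampled assignments of its reads, and the labels, headers and readme do not state its level. For Gm10163 it ran from 3.83 to 265 TPM in library 1, from 0.000778 to 215 in library 2 and from 8.21 to 292 in library 3, so the intervals overlapped despite the differing counts. For Gm4294 the interval in library 2 reached 66.7 TPM, above its 29.0 TPM in library 1. This comparison is rough, since a TPM in the table can lie outside its own interval. Of the 49 members called different with a 2-fold or larger ratio, 39 had intervals that overlapped in every pair of libraries and 10 did not. Of the 154 protein-coding genes at 10 TPM or more with that call, 29 had overlapping intervals and 125 did not. Over all members 49 of 243 had intervals of some pair of libraries that did not overlap, against 49.9% of all genes at 10 TPM or more. The interval was wider than 2-fold in every library for 110 of 243 members, against 4.95% of all genes at that level.

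Rps3a2 and Rps3a3 were among the 10 whose intervals did not overlap. Rps3a2 had 10349, 7577 and 4488 expected counts, and Rps3a3 had 7376, 5167 and 2778, both lowest in library 3. Rps3a1, the small-subunit protein gene they match, had 8283, 5514 and 10108 counts, highest in library 3. The estimated counts ran the same way, with 13448, 9960 and 6142 for Rps3a2 and 11086, 7323 and 13392 for Rps3a1. With every processed pseudogene of Rps3a1 added to it, the sum was 26064, 18284 and 17428 and its ratio 1.53. The counts under M4 gave Rps3a1 10805, 7708 and 10846. For Rps3a2 the table's TPM lies above its interval in every library (1653 to 1744 in library 1, against 2077 TPM). Rps3a3 was likewise above its interval (1174 to 1239 in library 1, against 1473 TPM). The offset was not particular to these copies. Gm12174 in library 1 (18.73 to 28.24, against 28.29 TPM) and Gm5812 in library 3 (12.99 to 24.54, against 26.8 TPM) were above theirs too. The reason for this offset was not tested.

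When each member was added to its closest gene, the large differences between libraries mostly disappeared. Of the 242 sums, 232 were called different by the same chi-square test adjusted together with all genes, but only 3 had a ratio of 2 or more. These are Gm15452 with Cks2, Gm6158 with Cnot1 and Gm34727 with Nme4, and only Gm34727 was among the 49. The closest genes alone gave 229 calls of 238, 5 of them with a ratio of 2 or more. Calls were thus made for 95.9% of the sums, and calls with a ratio of 2 or more for 1.24%. The same shares were 54.5% and 8.48% over all genes tested. In protein-coding genes at 10 TPM or more they were 70.9% and 2.24%, so a low share at 2-fold was not particular to the sums. Closest genes are mostly far more abundant than the copies, so a sum mainly follows the gene. The median share of the pair's expected counts that went to the member was 3.21%, 3.67% and 3.61% in libraries 1, 2 and 3, and 18 to 21 members took over 50%. Without library 1 the calls on sums fell to 98, and the sums with a ratio of 2 or more were 0, 3 and 1 without libraries 1, 2 and 3.

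Both assignments that used the M21 annotation gave similar values for a minority of the members. After scaling to CPM (counts-per-million), adding 0.5 and centring on protein-coding genes, expected and estimated counts were within 2-fold in every library for 103 of 243 members, against 95.3% of all genes at 10 TPM or more. Expected counts were more than 2-fold higher in every library for 59 members, against 1.02% of all genes, and more than 2-fold lower for 46, against 2%. The remaining 35 were apart in some libraries only. The members were chosen on the gene table itself, which favours copies that this table set high. Chosen instead on the TPM of the second table, 221 processed pseudogenes reached 10 TPM. The lists shared 141, or 58.0% of the first and 63.8% of the second. In that second list expected counts were within 2-fold for 72, higher for 3 and lower for 115. The counts in each direction thus moved with the table that chose the list, and the direction of the 59 and the 46 is no finding.

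The members farthest apart between the tables included abundant ones. Rpl3-ps1, a copy of the large-subunit gene Rpl3, had 3609, 2893 and 2827 expected counts and 152, 5.08e-05 and 69.7 estimated counts. Rpl23a-ps3 had 993, 728 and 684 expected and 0, 21.5 and 0 estimated counts, while the M4 table gave it 190, 117 and 130. Gm7964, a copy of the RNA-binding protein gene Hnrnpk, had 1023, 905 and 856 expected counts, 11.3, 2.76 and 5.63 estimated counts and 383, 348 and 324 M4 counts. In Rpl23a-ps3 and Gm7964 the M4 value lay between the others in every library.

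Rpl19-ps11, the other ribosomal copy of this kind, had 823, 774 and 640 expected and 23.6, 0 and 46.7 estimated counts. Gm3788 went the other way. This 136-base copy of Tmsb10, a thymosin that binds actin monomers, had 1.78, 3.38 and 3.27 expected and 1620, 1149 and 1095 estimated counts. Between libraries, the expected counts of the 4 farthest-apart members above 100 counts were steady, with ratios of 1.34 for Rpl3-ps1, 1.46 for Rpl23a-ps3, 1.23 for Rpl19-ps11 and 1.21 for Gm7964. A value that repeats across libraries was therefore not always a value on which the tables were close.

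**Figure D4:**
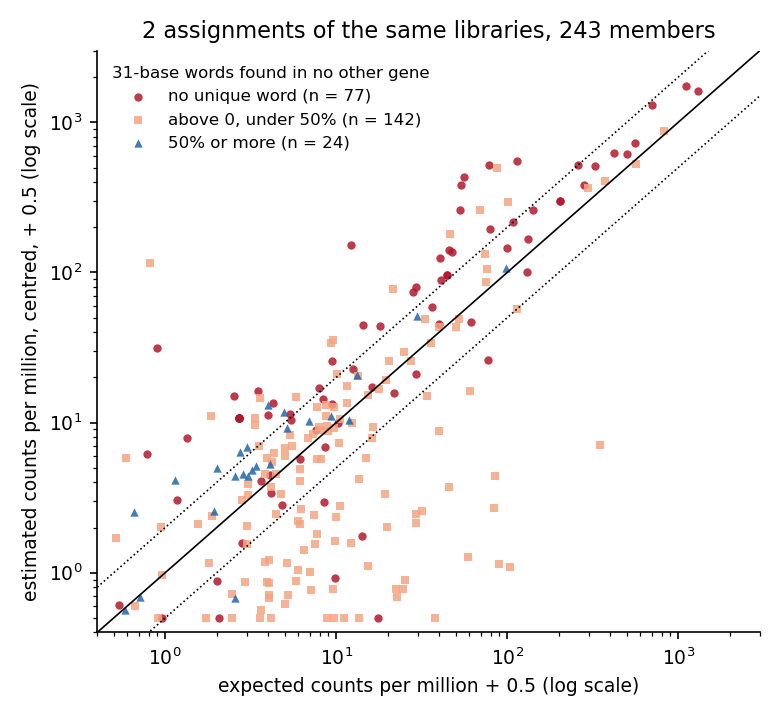
Mean CPM from estimated counts, centred on protein-coding genes (y axis), against mean CPM from expected counts (x axis) for the 243 members, both with 0.5 added and on log scales. The solid line marks equal values and the dotted lines 2-fold, and many of the 142 members with some but under 50% unique words lie far below the lower dotted line.

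Having no sequence of their own did not go with the widest gap between tables. Of the 77 members without a unique 31-base word, 30 were within 2-fold, 4 were higher in expected counts and 26 lower. Of the 142 with some but under 50% unique words, 58 were within 2-fold, 54 higher and 14 lower. Of the 24 with 50% or more, 15 were within 2-fold, 1 higher and 6 lower. Across the 243 members, the Spearman correlation of the unique share with the largest absolute log2 ratio between tables was -0.05, given as a description of genes that share libraries and sequence.

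By closest gene, expected and estimated counts were within 2-fold for 39 of the 102 ribosomal protein copies, with 23 higher and 24 lower in expected counts. Among the 13 chromatin and HMG copies 6 were within 2-fold, 5 higher and 2 lower. Gm15387, a copy of the DNA-bending protein gene Hmgb1, had 1508, 1118 and 887 expected and 1549, 980 and 855 estimated counts. Gm14681, a copy of the nucleolar chaperone gene Npm1, had 94.7, 60.7 and 68.3 expected counts and was listed at 0 estimated counts in every library. Of the 9 copies of translation factors, Tpt1, Naca and Btf3, 4 were within 2-fold and 4 higher. Tpt1-ps3, the highest of the 9 and a copy of the gene of translationally controlled tumour protein, had 1460, 1004 and 1083 expected and 2355, 1547 and 1670 estimated counts.

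Copies of Atp5, Cox, Nduf and Tomm genes were within 2-fold in 3 of 9, and RNA-binding copies in 2 of 9. Among the 6 chaperone and cyclophilin copies 4 were within 2-fold, Gm10123 among them. Gm15459, a copy of the heat shock cognate gene Hspa8, had 752, 669 and 830 expected but only 20.8, 37.5 and 67.0 estimated counts. Glycolytic copies were within 2-fold in 2 of 3. Gm3200, a copy of the glycolytic gene Gapdh, had 80.8, 175 and 136 expected and 93.3, 226 and 167 estimated counts, lowest in library 1 in both tables. Cytoskeletal copies were within 2-fold in 1 of 4, and ferritin or ubiquitin copies in 4 of 7.

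The table of counts under M4, the older annotation, holds 22457 genes. Among them are 133 of the 9940 processed pseudogenes and 19 of the members. Expected counts were more than 2-fold above the M4 counts in every library for 12 of the 19, against 13.3% of all genes at 10 TPM or more, and more than 2-fold below for 1, against 0.889%. Rpl27-ps3, which has the same sequence as the member Gm11518 and lies whole inside a transcript of the large-subunit gene Rpl27, had 2368, 1530 and 1532 expected counts but 3, 2 and 2 M4 counts. Gm9830, identical to part of Ramac, a gene of the messenger RNA cap machinery, had 69.1, 17.7 and 44.9 expected counts and 0 M4 counts in every library. Rps18-ps3 was the one in the other direction, with 58.4, 28.2 and 11.2 expected and 283, 246 and 242 M4 counts. On these 19 members the median share of the pair's counts assigned to the member was 8.69%, 7.22% and 7.41% in expected counts, 6.45%, 4.63% and 7.72% in estimated counts and 1.95%, 2.12% and 2.60% in M4 counts.

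Gm10355 was the member on which the 3 tables were closest. It had 107, 184 and 166 expected, 128, 218 and 192 estimated and 116, 227 and 183 M4 counts, lowest in library 1 in each, and no pair of tables differed by more than 0.18 on the log2 scale. Gm4540, also within 2-fold in all tables, was next with a largest difference of 0.88. It had 60.8, 27.9 and 32.8 expected, 81.3, 67.9 and 60.4 estimated and 79, 61 and 51 M4 counts. Gm10146 (1.69, a copy of the splicing factor gene Lsm7), Gm9493 (1.73, Rps7) and Gm8186 (2.63, the spliceosomal gene Snrpg) followed. All 5 were picked for closeness among the 19 in the M4 table, so these differences are a description.

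A small set of members kept the same reads in every sampled assignment. In 17 of 243 the gene table gave a posterior standard deviation of 0 reads in every library, against 56.8% of all genes at 10 TPM or more. All 17 had more than 50% unique words, and none lay inside another gene's transcript. Gm12250 stood above the rest with 929, 833 and 863 expected counts and 105, 110 and 127 TPM. RefSeq lists it as protein-coding with the synonym Irgb10, a name of the interferon-inducible immunity-related GTPases. Its closest gene, Gm5431, is only 68.5% identical and had at most 0.31 TPM. Estimated counts were 1290, 1102 and 1156, close to the expected counts after scaling.

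Bambi-ps1, a copy of the transforming growth factor beta decoy receptor gene Bambi, had 65, 101 and 69 expected counts and 105, 146 and 100 estimated counts, while Bambi had a mean of 0.02 TPM. Gm7805, a copy of the mitochondrial ribosomal protein gene Mrpl20 at 88.3% identity, had 96, 131 and 112 expected counts. Both were highest in library 2. The rest had at most 49 expected counts in any library and were closest to ribosomal protein genes (Rpl36, Rpl35a, Rpl38, Rpl37, Rpl39, Rpl21 and Rpl29) or to Arhgap5, Ppia, Mrps14, Hmgb1, Ftl1-ps1, Tma7 and Nme4. Gm34727, an unshared copy of Nme4 with 11, 38 and 23 counts, and Gm47773, a copy of Rpl29 inside Pcgf5 with 37, 14 and 18, were the unshared ones called different with a 2-fold or larger ratio and with intervals that did not overlap.

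**Figure D5:**
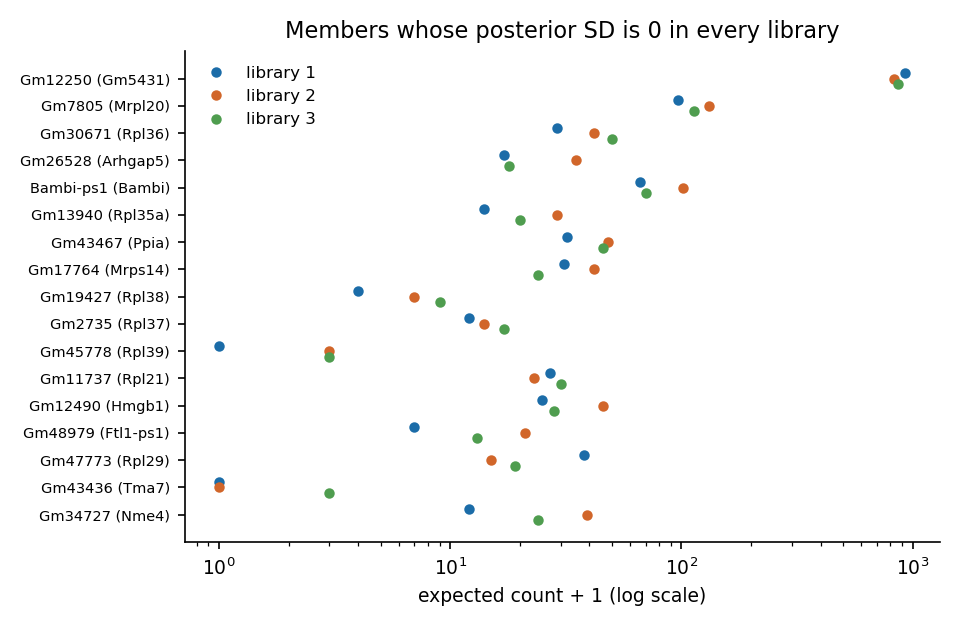
Expected counts plus 1 (x axis, log scale) of the 17 members whose posterior standard deviation was 0 in every library, with the closest gene in parentheses and 1 point per library. Gm12250 lies between 833 and 929 counts, and Gm7805 comes next at 96 to 131.

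Some copies overlap exons of other genes. For 11 members the exon is on the opposite strand, where reads cannot be told apart without strand. For 6 it is on the same strand, where strand does not tell them apart. Among the members described above, Rps23-ps1, Gm15459 and Gm5812 overlap an exon on the opposite strand and Rpl19-ps11 on the same strand. Gm16042 lies opposite Glcci1, which is also its closest gene, and had 353, 608 and 646 expected counts. Gm5831 lies opposite Arhgef12, likewise its closest gene, and had 60.7, 80.6 and 73.6 expected counts. For Gm16042 and Gm5831 the best match is thus the gene they overlap, so the match alone does not show that they are copies of it. Gm5812, a copy of the nucleolar methyltransferase gene Fbl opposite an exon of Tulp4, had 46.5, 79.4 and 130 expected and 72.1, 96.3 and 139 estimated counts. Its intervals did not all overlap. The labels, headers and readme do not state whether the counting used strand.

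In all, 76 of the 243 members were within 2-fold between expected and estimated counts in every library and differed by less than 2-fold between libraries. The 18 members under 30 counts were given no library ratio and so could not be among the 76. Taken apart, 95.3% of all genes at 10 TPM or more were within 2-fold between these tables. A call with a 2-fold or larger library ratio, which also needs an adjusted p under 0.05, was made for 8.48% of all genes tested. These shares rest on different sets of genes. The share of all genes that met both conditions was not computed, so the 76 cannot be read as many or few. 26 of these 76 had no 31-base word of their own, Rps23-ps1, Gm12918 and Rps6-ps4 among them, and 25 lay whole inside another gene's transcript. A contained copy has no base that its holder lacks, so for those the tables were close on a division of reads that the annotated sequence alone does not settle.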

How the data were processed

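Expected counts, TPM and their posterior values were taken from the authors' gene table, made per the deposited readme from an alignment to the transcriptome with a GENCODE M21 index. Estimated counts come from a second deposited table made from the reads and an M21 index, and raw gene counts from a deposited table under GENCODE M4, all on mm10. TPM is the authors' scaling over each table, the interval bounds (a signal in TPM) and the posterior standard deviation (a score in reads) are as deposited, and lengths are in bases per the file headers. Aligners, quantifiers, versions and strand settings were not given in the sources used here. Rows naming no gene, 0.117% to 0.135% of expected counts, were left out.

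Totals were 8284381 to 9299054 expected, 11270867 to 12967398 estimated and 8671798 to 9586872 M4 counts. Estimated counts were summed per gene, and both kinds of estimate were rounded for tests. Library sizes were scaled by TMM (edgeR 4.0.16, R 4.3.3) and alternatively by DESeq2 1.42.0 size factors. Genes with 30 or more counts were tested by a chi-square test of homogeneity with Benjamini-Hochberg adjustment over all genes. This test takes counting error as the only error. Tables were compared per gene after scaling to the shared genes, adding 0.5 CPM and centring on protein-coding genes at 10 TPM or more. M4 genes were matched by identifier without version. The closest gene is the best BLAST+ 2.17.0 hit by bit score, ties going to the higher TPM. Scripts were tested on simulated data.

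Members named are the 10 of highest mean TPM, the 10 of largest library ratio among those with 100 or more counts, the 5 closest over 3 tables, the 5 farthest apart between expected and estimated counts, the 3 on each side of the threshold, and their closest genes. Other named members, the sequence of Gm13370, and the measures of containment, unique words and interval overlap were chosen after values were seen. The members and lists were chosen with earlier results of these data known. The result for 1 member is not reported here.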

Additional observations from a re-analysis of the deposited data

How the results depend on the processing

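The number of members ranged over 234 to 247 when 1 library was left out, and was 429 on posterior mean TPM, of which 225 are among the 243. Of calls between libraries, the M4 counts gave 7, of which 2 were 2-fold or more, among 14 members tested. Leaving out 1 library gave 52 to 127 calls, 19 to 25 of them 2-fold or more. Members within 2-fold between tables numbered 64 at 1.5-fold, and 107 to 109 without 1 library. Members above M4 numbered 7 at 4-fold and 12 to 13 without 1 library. Pair sums gave 98 to 231 calls without 1 library, 0 to 3 of them 2-fold or more. The median share assigned to the member, 3.50% as a mean over libraries, was 2.96% in estimated counts, 2.22% in M4 counts (19 members only) and 3.41% to 3.64% without 1 library. The drop without library 1 has a cause that was not tested. The other alternatives (DESeq2 size factors, no count minimum, estimated counts, thresholds of 5 and 20 TPM, 10 TPM in every library, offsets of 0.1 and 2, sums over all copies) kept each count within 1.5 times.

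No paired analysis was possible because the series has 1 group. With 1 animal, nothing here measures variation between mice. 18 members had under 30 expected counts, and 77 had no 31-base word of their own, which limits what their values can show. No alternative varied the depth.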
